A study of Mus musculus with 2 samples.

Results

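The genes described here are 10 heat-shock chaperones, Hspa1a, Hspa1b, Hspa8, Hspa5, Hsph1, Hsp90aa1, Hsp90ab1, Hspb1, Dnajb1 and Dnaja1. They were taken by gene symbol from the 32285 genes counted in single cells of mouse pancreatic tumours, and all 10 were found. The list was chosen by its measured UMI levels in these same 2 libraries, so the levels and ratios of the members are a description. One library came from tumours of KPPC mice given vehicle and the other from tumours of KPPC mice given takinib, an inhibitor of the kinase TAK1, at 50 mg/kg. KPPC is a genetically engineered mouse model of pancreatic cancer, and the labels do not spell out its alleles or its Cre driver, which both libraries share. Mice were 6 weeks of age, treatment lasted 14 days, and how many mice each library pooled is not given in the sources used here. Tumours were digested for 45 minutes at 37 °C before capture of cells, in both groups. Each group has 1 library, so no difference has a replicate check and no test or p-value is given. Intervals in square brackets are at 95% and cover counting error only.

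Chaperones of the heat-shock family hold unfolded proteins in solution and help them to fold. Proteins of the Hsp70 family bind exposed stretches of a client, Hsp40 partners (the J-domain proteins) deliver clients and start the ATP cycle of Hsp70, Hsp110 proteins release the nucleotide, and Hsp90 completes the folding of kinases and receptors. Some of these genes are active in every cell (Hspa8, Hsp90ab1), while others (Hspa1a, Hspa1b, Hsph1, Dnajb1, Hspb1 and, in part, Hsp90aa1) are known as targets of heat-shock factor HSF1, which binds repeats of GAA and TTC called heat-shock elements when unfolded protein accumulates. Warm enzymatic digestion of a tissue is known to induce several of them, so a level in dissociated cells can come from the tumour or from the preparation.

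Hspa1a and Hspa1b, the stress-inducible cytosolic Hsp70 genes, are a near-identical tandem pair and are therefore shown by sequence first. They lie on the minus strand of chromosome 17 with 9951 bases between them (GRCm38.p6, Hspa1a 34969190 to 34972156, Hspa1b 34956436 to 34959238). Their coding sequences were 99.4% identical over 1926 aligned columns, while the stretches after the stop codon were 47.1% identical and the last 300 bases of the transcripts 49.4%. Reads from the end of each transcript can therefore be told apart, and reads from the coding part mostly cannot, so the pair is given both as single genes and summed. Promoters were matched in RefSeq (GRCm38.p6) for 7 of the 10 members. The 250 bases before the start of each gene of the pair, read along the gene, differed at 3 positions, and both hold 1 heat-shock element in the form GAANNTTC, in capitals below, whose first base lies 104 bases before the start.
Hspa1a, chr17:34972157-34972406, minus strand: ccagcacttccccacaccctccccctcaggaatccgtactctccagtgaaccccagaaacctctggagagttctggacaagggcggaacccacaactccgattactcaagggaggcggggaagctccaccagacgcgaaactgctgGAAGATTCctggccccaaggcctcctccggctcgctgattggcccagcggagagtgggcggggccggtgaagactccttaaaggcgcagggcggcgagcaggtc
Hspa1b, chr17:34959239-34959488, minus strand: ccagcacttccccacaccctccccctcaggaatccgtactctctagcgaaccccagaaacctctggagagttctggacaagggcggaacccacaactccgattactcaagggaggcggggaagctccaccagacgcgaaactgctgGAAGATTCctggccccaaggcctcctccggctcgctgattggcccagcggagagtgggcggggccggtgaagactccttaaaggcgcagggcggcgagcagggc
The promoter of Hspb1 held 2 elements of the same form, 117 and 97 bases before the start.
Hspb1, chr5:135887669-135887918, plus strand: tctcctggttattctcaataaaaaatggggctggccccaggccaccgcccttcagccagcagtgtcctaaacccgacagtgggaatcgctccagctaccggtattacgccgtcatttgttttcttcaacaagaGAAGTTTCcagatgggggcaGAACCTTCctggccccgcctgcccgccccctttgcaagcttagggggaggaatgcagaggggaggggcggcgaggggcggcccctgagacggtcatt
Searched on both strands, GAANNTTC occurs in 7.86% of the 32851 RefSeq promoters of 300 bases. The same form lay 124 bases before 1 of the 3 annotated starts of Dnaja1. That window begins at 40722218 on chromosome 4, inside the gene, whose annotated span begins upstream at 40722150. Hsph1, the Hsp110 gene, held a longer element of 3 units that face each other in turn, which 0.603% of promoters hold, as ttctggaaagttc from base 37 after one of its annotated starts. Hspa5 held no such element but the endoplasmic reticulum stress element (ERSE), found in 0.119% of promoters, as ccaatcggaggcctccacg 65 bases before the start that RefSeq's promoter is drawn from. That start lies inside the gene, whose annotated span begins upstream at 34771970 on chromosome 2, and no ERSE lies in the part of the window before that point. The 2 promoters of Dnajb1 held none of the heat-shock elements searched. No promoter of Hspa8, Hsp90aa1 or Hsp90ab1 was matched. A match describes these letters and is no measure of binding.

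After filters on depth, genes and mitochondrial share and removal of likely doublets, 9558 cells of vehicle and 25183 of takinib remained, with a median of 3556 and 2887 UMIs (barcodes that mark single captured RNA molecules). The median mitochondrial share was 8.70% in vehicle and 1.79% in takinib. The libraries shared 400 cell barcodes among those past the filters. Clusters were named from markers, and 6 classes had at least 100 cells in each library. These were macrophage-like (4833 vehicle and 7071 takinib cells), neutrophil-like (273 and 12293), T-like (252 and 1263), B-like (244 and 1383), epithelial-like (1689 and 1906) and endothelial-like cells (709 and 101). One further cluster with 259 and 297 cells, led by Dcn, Serpinb2 and Timp1, scored nearly the same for mesothelial and fibroblast markers and stays unnamed; it is called the Dcn cluster here. The class of the 273 vehicle neutrophil-like cells depends on the clustering. With doublets kept, no neutrophil-like cluster held more than 28 vehicle cells, and 230 vehicle cells lay in an unnamed cluster led by Prss34, Siglecf and Mcpt8. Without the chaperone and early genes, 255 vehicle cells lay in a cluster led by Cxcr2 and G0s2, with Ins2 next, that stays unnamed because endocrine markers scored close behind neutrophil ones. Of the 273 cells, 237 had 10 to 20% mitochondrial UMIs, whereas 10533 of the 12293 takinib ones had at most 2%. All neutrophil-like ratios here rest on these vehicle cells. Vehicle held cells with Y-linked UMIs (3087) and cells with Xist UMIs only (1075), and takinib held none of the former, so vehicle held cells of male and of female mice and takinib showed no male cell. Levels are in CPM, the UMIs of a gene over all UMIs of its class in that library, on the usual scale of counts per 1e6. For ratios, 10 CPM was added to both levels before takinib was divided by vehicle and the log2 taken, so weakly expressed genes appear to change less than they did. A gene was compared in a class with at least 50 counts in either library, and counts as higher or lower past a 2-fold ratio on that scale.

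The inducible Hsp70 pair was lower in takinib in all 6 classes and in the Dcn cluster. In macrophage-like cells Hspa1a and Hspa1b together measured 90.2 CPM [86.1, 94.4] in vehicle and 19.8 CPM [18.5, 21.1] in takinib, a log2 ratio of -1.75 [-1.83, -1.67]. In B-like cells the pair was at 104 and 25.7 CPM, in T-like cells at 112 and 40.8 CPM. These 3 leukocyte classes thus carried the pair at close levels in vehicle, with overlapping counting intervals between T-like and B-like cells. Endothelial-like cells had 87.2 CPM and 33.6 CPM in the same order, and the takinib value rests on 23 UMIs, of which 11 came from 1 cell; without the richest cell of each library the takinib level was 17.8 CPM. The Dcn cluster had 179 and 39.6 CPM. The ratio was smaller in epithelial-like cells, at 155 and 99.2 CPM, and in neutrophil-like cells, at 116 CPM [84.3, 156] in vehicle and 76.2 CPM [73.2, 79.3] in takinib. Without the richest cell of each library the neutrophil-like ratio of -0.55 became -0.21, and among neutrophil-like cells with 10 to 20% mitochondrial UMIs the pair was at 92.2 CPM in vehicle and 99.4 CPM in takinib.

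Both genes of the pair moved in the same direction in each class. Vehicle first, Hspa1a measured 53.3 and 12.2 CPM in macrophage-like cells, and the epithelial-like values were 60.5 and 33.8 CPM. Hspa1b measured 36.9 and 7.63 CPM in macrophage-like and 94.4 and 65.4 CPM in epithelial-like cells. The share of Hspa1a in the UMIs of the pair differed between classes, with 1108 of 1874 in vehicle macrophage-like and 688 of 1761 in vehicle epithelial-like cells, and with 577 of 939 and 728 of 2139 in takinib. Since reads from their shared coding part may have been assigned to either gene or to none, that share is uncertain. Over the 10 vehicle classes with enough cells to order, the pair ran from 56.5 CPM in fibroblast-like to 199 CPM in perivascular-like cells, and 8 of the steps between neighbours in that order lay within overlapping counting intervals. In takinib epithelial-like cells stood first and neutrophil-like cells second, both apart from the next class.

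Hspa8, the constitutive cytosolic Hsp70, was lower by less than the fold in most classes. It measured 1179 CPM [1164, 1194] in vehicle and 896 CPM [887, 904] in takinib macrophage-like cells, and 1068 and 982 CPM in epithelial-like cells. The exception was the neutrophil-like class, where it measured 883 CPM [791, 983] in vehicle and 279 CPM [273, 285] in takinib, a log2 ratio of -1.63. The Dcn cluster went the other way, with 713 and 908 CPM, and this sign changed when only cells with 2 to 6% mitochondrial UMIs were compared (-0.09).

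Hsph1, the Hsp110 that serves as nucleotide exchange factor of Hsp70, was lower in takinib in every class. In T-like cells it measured 112 CPM [85.1, 144] in vehicle and 16.8 CPM [12.7, 21.7] in takinib, with a log2 ratio of -2.18 [-2.59, -1.77], the lowest of any member. In endothelial-like cells Hsph1 was at 97.2 and 18.97 CPM, in B-like cells at 67.8 and 12.2 CPM, the latter on under 50 counts in each library. Epithelial-like cells had 62.8 CPM [58.3, 67.6] and 17.7 CPM [16.0, 19.6]. No interval of the vehicle level overlapped that of takinib in these classes. Macrophage-like cells had 37.5 and 14.1 CPM, a log2 ratio of -0.98 that lies just inside the 2-fold limit, and the Dcn cluster 58.6 and 14.2 CPM. In neutrophil-like cells 16 vehicle UMIs gave 42.2 CPM [24.1, 68.5] and 153 takinib UMIs gave 4.72 CPM [3.999, 5.53].

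The Hsp90 genes, whose products fold kinases and hormone receptors, moved less. Hsp90aa1, the inducible form, stayed within the fold in all 6 classes, from -0.89 in T-like cells (567 and 302 CPM) to -0.02 in neutrophil-like cells (356 and 350 CPM). Hsp90ab1, the constitutive form, measured 2433 CPM [2404, 2462] in vehicle and 2550 CPM [2529, 2572] in takinib epithelial-like cells, a ratio of 0.07 that took either sign among the alternative settings. It passed the fold only in neutrophil-like cells, where it was at 712 CPM [630, 802] and 326 CPM [320, 332]. In the Dcn cluster both Hsp90 genes were higher in takinib, Hsp90ab1 at 1253 and 1860 CPM and Hsp90aa1 at 385 and 503 CPM. The Hsp90aa1 sign there turned in cells with 2 to 6% mitochondrial UMIs (-0.11).

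The J-domain genes parted from each other. Dnaja1 was lower in all 6 classes, from 360 to 255 CPM in endothelial-like cells (-0.48) up to 327 CPM [272, 390] against 102 CPM [98.2, 105] in neutrophil-like cells (-1.59). It passed the fold in T-like, B-like and neutrophil-like cells, and in macrophage-like cells it measured 213 and 114 CPM. Dnajb1, the classical partner of inducible Hsp70, passed the fold in no class on the main scale. Its ratio ran from -0.88 in T-like cells (98.6 and 48.9 CPM) to 0.81 in neutrophil-like cells, where 11 vehicle UMIs gave 29.0 CPM [14.5, 51.9] and 1894 takinib UMIs gave 58.4 CPM [55.8, 61.1]. With the median of all genes in that class set to 0, this ratio was 1.12 and passed the fold. In epithelial-like cells it measured 44.1 and 49.3 CPM, and this sign turned in cells with 2 to 6% mitochondrial UMIs (-0.10). In B-like cells 23 vehicle UMIs gave 40.0 CPM [25.4, 60.0], beside 49.8 CPM [42.9, 57.5] in takinib. The Dnajb1 ratio thus lay above 0 in B-like, epithelial-like and neutrophil-like cells, where Hsph1 was lower. In B-like and epithelial-like cells the intervals of its levels in the libraries overlapped.

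Hspb1, a small heat-shock protein that holds unfolding clients and binds the cytoskeleton, was a gene of epithelial and stromal cells in these tumours. It measured 1697 CPM [1621, 1776] in the vehicle Dcn cluster and 1092 CPM [1058, 1127] in takinib, and 251 and 147 CPM in endothelial-like cells. In epithelial-like cells it was at 170 CPM [162, 177] in vehicle and 77.0 CPM [73.4, 80.8] in takinib, its only ratio past the fold (-1.05). In T-like cells it was at 1.90 and 2.61 CPM, and in macrophage-like cells at 4.33 and 2.80 CPM. No Hspb1 UMI was seen among the 379261 UMIs of vehicle neutrophil-like cells, which allows up to 7.91 CPM at 3 counts (9.73 CPM as the exact upper limit), above the 4.10 CPM of takinib, so no fold is given there. Hspa5 (BiP), the Hsp70 of the endoplasmic reticulum and a target of the unfolded protein response, passed the fold in no class. Macrophage-like cells had 431 and 340 CPM of it, epithelial-like cells 464 and 397 CPM and T-like cells 307 and 309 CPM.

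**Figure D1:**
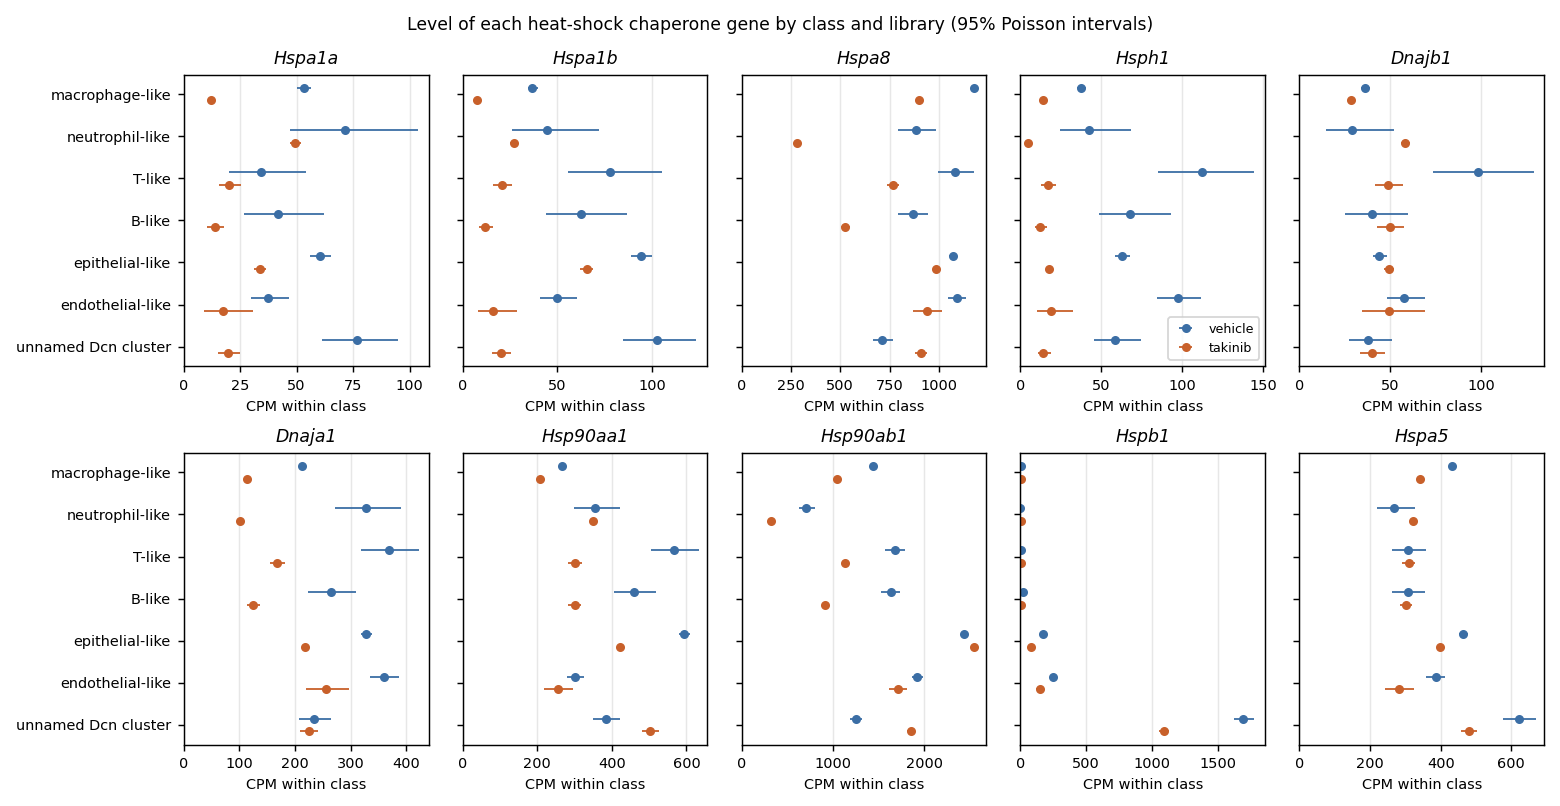
Level of each member in CPM (x axes, each from 0) by class (y axis), vehicle in blue and takinib in orange, with 95% Poisson intervals and 1 library per group. The Hsph1 points of takinib lie left of those of vehicle in every class, from 4.72 CPM in neutrophil-like to 18.97 CPM in endothelial-like cells, while those of Hspa5 and Dnajb1 lie close together or cross.

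Counted over classes, 56 of the 60 values of 10 members in 6 classes had enough counts, 15 were lower past the fold and none was higher past it. Of all 60 ratios, those on too few counts included, 52 were below 0. The median of all genes was also below 0 in each of the 6 classes, and the share of all genes below 0 was not counted. Among all genes, the share lower past the fold was 1.13% of 11904 in macrophage-like cells, where 2 of 10 members were lower, and 1.9% of 12531 in epithelial-like cells, where 2 of 10 were. It was 1.24% in T-like cells (3 of 9 members with enough counts), 1.66% in B-like cells (2 of 7) and 3.26% in the Dcn cluster (3 of 10). In endothelial-like cells 5.97% of all genes were lower past the fold and 2 of 10 members. In neutrophil-like cells the share of all genes was 10.6%, against 4 of 10 members, and the median of all genes stood at -0.31 there. The neutrophil-like ratios below 0 thus share their direction with most genes, and the 3 above 0 do not. The median of the members ranged from -0.88 in T-like and -0.71 in B-like cells to -0.43 in macrophage-like cells, with -0.51 in the neutrophil-like, -0.48 in the epithelial-like and -0.46 in the endothelial-like class. The median of all genes in endothelial-like cells was -0.18 and lay between -0.09 and -0.01 in the other 4 classes. The members were proposed with results of these libraries known, so these shares describe them and support nothing further.

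**Figure D2:**
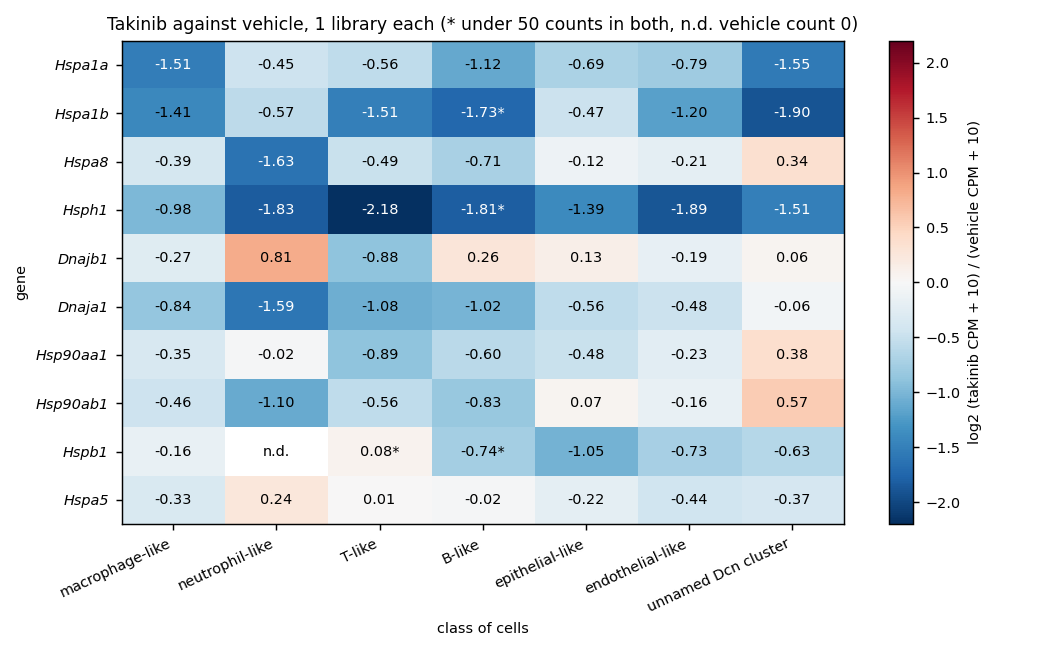
Log2 ratio of takinib to vehicle (10 CPM added to each) for the 10 members (rows) in 6 classes and the unnamed Dcn cluster (columns), blue for lower and red for higher in takinib, with the value in each cell. The rows of Hspa1a, Hspa1b and Hsph1 are blue throughout, down to -2.18 for Hsph1 in T-like cells, and Dnajb1 reaches 0.81 in neutrophil-like cells.

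Other genes of the system were followed as 5 lists. Among 12 HSF1-linked genes, which include HSF1 itself, the co-chaperone Bag3 and the collagen chaperone Serpinh1, no gene passed the fold in macrophage-like cells (9 with enough counts, median -0.25). Serpinh1 measured 174 CPM in vehicle and 51.4 CPM in takinib epithelial-like cells, and 865 and 279 CPM in endothelial-like cells. Chordc1, an Hsp90 partner that is induced by heat, was lower in T-like (110 and 33.3 CPM), endothelial-like (96.3 and 26.3 CPM) and neutrophil-like cells (47.5 and 10.7 CPM). The one gene of this list above the fold was Cryab, a small heat-shock protein related to Hspb1, in the Dcn cluster, at 92.8 CPM in vehicle and 676 CPM in takinib. There Cryab was thus higher in takinib, where Hspb1 was lower.

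Of 13 co-chaperones of Hsp70 and Hsp90, none passed the fold in macrophage-like, epithelial-like, T-like or B-like cells, and Fkbp4, an Hsp90-binding prolyl isomerase, was lower in endothelial-like cells (62.1 and 21.9 CPM). In neutrophil-like cells 4 of the 13 were lower, among them Stip1, the adaptor between Hsp70 and Hsp90 (76.5 and 21.5 CPM). All 11 chaperonin genes, which encode the folding chambers of the mitochondrion and cytosol, had enough counts in each class. In neutrophil-like cells 6 of them were lower past the fold, including Hspd1 (124 and 42.7 CPM), and in T-like cells 1 was, Hspd1 again (246 and 106 CPM). The share of all genes lower past the fold in neutrophil-like cells was 10.6%, with a median of -0.31, beside these counts of 4 of 13 and 6 of 11. In the Dcn cluster all 11 had ratios above 0 and none passed the fold, with a median of 0.41.

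The 17 genes of endoplasmic reticulum folding stayed near Hspa5. None was higher past the fold in any class, and the lower ones were Hsp90b1 (Grp94) in B-like cells (570 and 277 CPM), Pdia6, a disulfide isomerase, in endothelial-like cells (230 and 107 CPM) and Hyou1, an Hsp110 relative, in neutrophil-like cells (39.6 and 12.6 CPM). Their median was -0.13 among epithelial-like and -0.14 among macrophage-like cells.

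The early genes known to be switched on by dissociation, such as Fos, Egr1 and Ier3, went the other way. In epithelial-like cells 11 of 14 were higher in takinib past the fold, where 2.27% of all genes were. In B-like cells 12 of 14 were (7.02% of all genes), in T-like cells 6 of 14 (4.69%), in endothelial-like cells 8 of 13 (3.6%) and in the Dcn cluster 4 of 14 (4.63%). None of these genes was lower past the fold in any class. Fos measured 111 and 587 CPM in epithelial-like and 125 and 408 CPM in T-like cells, vehicle first. Egr1 measured 43.2 and 296 CPM in endothelial-like cells. Macrophage-like and neutrophil-like cells showed less of this, with 1 of 14 (1.87% of all genes) and 2 of 14 (3.65%) higher, and their summed early genes were at 4976 and 5695 CPM and at 13487 and 14135 CPM. In the epithelial-like, B-like, T-like and endothelial-like classes the pair, summed over the class, was thus lower in takinib while many early genes, also linked to digestion in warm buffer, were higher. Takinib neutrophil-like cells carried the summed early genes at 14135 CPM, and neutrophil RNA was seen in these takinib classes, as described below. The parts of the preparation and of neutrophil RNA in the higher early genes were not tested. Nor was the part of the preparation in the lower pair.

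**Figure D3:**
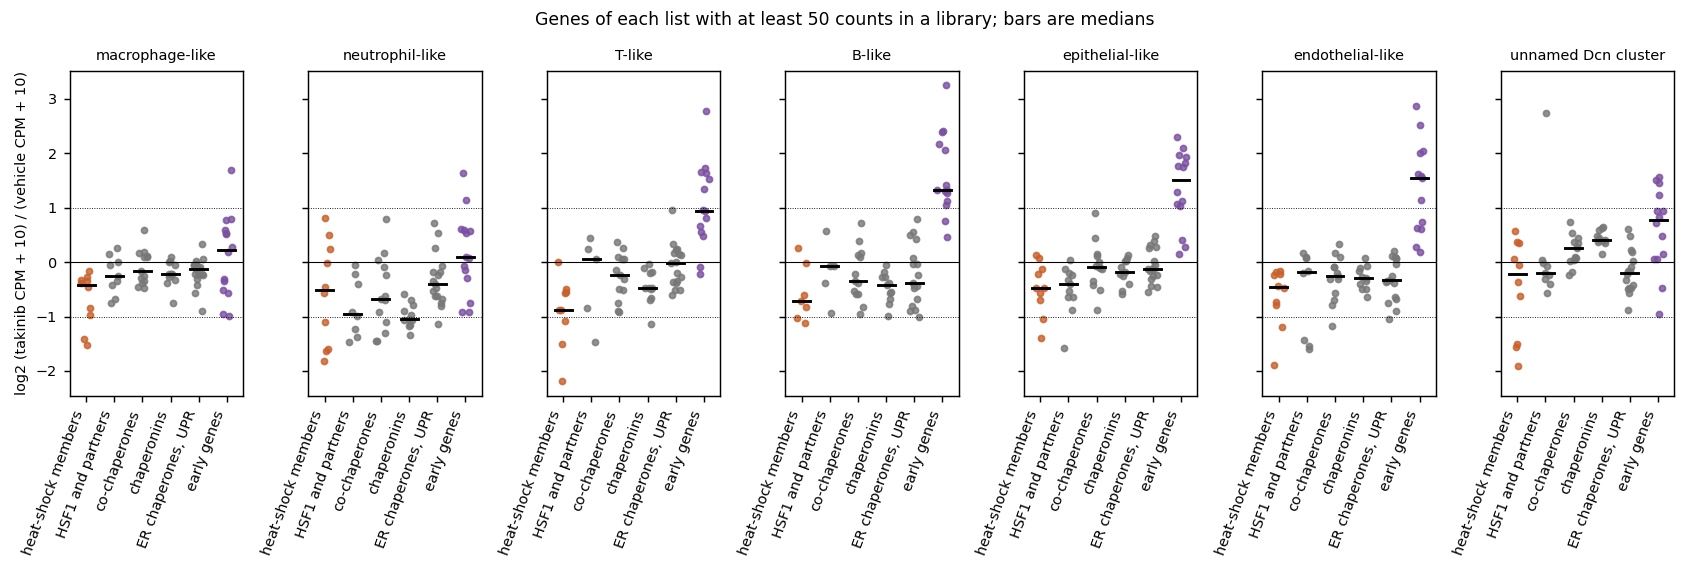
Log2 ratio of takinib to vehicle (y axis) for each gene with at least 50 counts in a library, by list (x axis) and class (panels), with bars at list medians and dotted lines at a 2-fold ratio. In epithelial-like cells the members have a median of -0.48 and the early genes one of 1.51.

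Takinib held many more neutrophil-like cells, and neutrophil RNA was seen in the other classes. Of the 9 neutrophil markers, 9 were higher in takinib in each of the other 5 classes and in the Dcn cluster, and at 0 in vehicle were Retnlg and Camp in T-like cells, Camp and Ngp in B-like cells and Camp in the Dcn cluster. The summed level of the list in the classes other than neutrophil-like ran from 110 to 675 CPM in vehicle and from 8447 to 36921 CPM in takinib. When the neutrophil profile was subtracted from each takinib class in the amount given by S100a8 and S100a9, 5.69% of macrophage-like UMIs were removed, beside 7.30% of epithelial-like, 12.01% of T-like and 25.8% of B-like ones. The epithelial-like ratios were then -1.34 for Hsph1 and -0.95 for Hspb1, and the pair in B-like cells stood at -2.66 on fewer counts. Of the 60 values run with this subtraction, 57 kept their sign and 50 were below 0, with a median shift of 0.027. The part of neutrophil RNA in the ratios was not tested in any other way.

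Free RNA could be measured in vehicle only, since no takinib barcode held under 500 UMIs. In the 376273 vehicle barcodes under 100 UMIs, Hsph1 was at 70.6 CPM [51.7, 94.2], above its 51.0 CPM in kept cells, and Dnaja1 at 266 CPM against 261 CPM. The pair was at 69.1 CPM [50.4, 92.4] there and at 116 CPM in kept cells. Vehicle droplets thus carried each of these genes. Hspb1, which macrophages hardly express, bounds how much of this reached a class. In macrophage-like cells it stood at 7.23% of its droplet level (upper limit 8.89%), which at that limit brings 6.28 CPM of Hsph1 to the 37.5 CPM measured and 6.14 CPM of the pair to its 90.2 CPM. In T-like cells the upper limit was 17.6%, or 12.5 CPM of the 112 CPM of Hsph1. In B-like cells the limit of 53.4% allows 37.7 of the 67.8 CPM of Hsph1, and no such bound exists for classes that express Hspb1. These limits take the droplet levels as exact. The droplet level of Hspb1 was 59.9 CPM [42.6, 81.9] on 39 UMIs, so the true limits may be wider.

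The vehicle library differs from takinib in sex and in mitochondrial share, so the members were set out by both. Among vehicle macrophage-like cells, the 533 with Xist UMIs only had 22.5 CPM of Hsph1 and the 1345 with Y-linked UMIs only had 43.1 CPM, beside 14.1 CPM in takinib. Against the female vehicle cells the log2 ratio of takinib was -0.43 [-0.67, -0.13] in the macrophage-like class, -1.11 in the epithelial-like class and -0.83 [-1.75, 0.37] in the endothelial-like class, where only 7 female UMIs were counted. Hsph1 thus kept its direction against female cells, at less than the ratio against all vehicle cells in each of these classes. The pair measured 139 CPM in female and 70.1 CPM in male vehicle macrophage-like cells, but 1 female cell held 213 of its UMIs (134 of Hspa1a and 79 of Hspa1b among 7412 UMIs). Without that cell the female level was 54.9 CPM and the level of all vehicle macrophage-like cells 80.0 CPM in place of 90.2 CPM. Dnaja1 in macrophage-like cells measured 145 CPM in female and 229 CPM in male cells of vehicle. Against female cells alone 20 of the 30 values in these 3 classes were below 0 and 20 kept their sign, with a median shift of 0.25. In endothelial-like cells Hspa8, Hsp90aa1, Hsp90ab1, Hspb1, Dnajb1 and Dnaja1 had ratios above 0, from 69 such cells. In macrophage-like cells Dnajb1 (0.16), Hsp90aa1 (0.02) and Hspb1 (0.0050) did, and in epithelial-like cells Dnajb1 (0.24), while Hsp90ab1 there came to -0.01. The female and male vehicle cells may come from different mice, and sex and animal cannot be told apart.

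In macrophage-like and epithelial-like cells the lower takinib levels of the pair and of Hsph1 were also seen within a single range of mitochondrial share. In macrophage-like cells with 2 to 6% mitochondrial UMIs the pair measured 98.4 CPM [91.4, 106] in vehicle and 16.9 CPM [15.5, 18.3] in takinib, and Hsph1 37.2 and 14.4 CPM. Epithelial-like cells in that range had 155 and 89.6 CPM of the pair and 65.1 and 15.2 CPM of Hsph1. These values were close to those of all cells. In vehicle macrophage-like cells the pair was at 98.4, 76.2 and 107 CPM at 2 to 6, 6 to 10 and 10 to 20%, and Hsph1 was at 37.2, 38.3 and 36.0 CPM. Of the 728 vehicle UMIs of the pair at 2 to 6%, 213 came from 1 cell, so the order of the pair over the share depends on that cell. T-like and B-like cells allow little of this comparison, since 189 of 252 and 186 of 244 vehicle cells lay at 10 to 20%, where too few takinib cells lay for a value. Hsph1 in vehicle T-like cells measured 56.3 CPM [25.8, 107] at 6 to 10% and 132 CPM [93.2, 182] at 10 to 20%, and in vehicle B-like cells 20.4 CPM [4.21, 59.7] and 87.0 CPM [58.3, 125]. The vehicle level of Hsph1 in both classes was thus higher at the larger share, with intervals that just overlap, and the part of this in the T-like ratio of -2.18 was not tested. At 6 to 10% the takinib B-like cells had 28.6 CPM [7.81, 73.3] of Hsph1 on 4 UMIs and 57.3 CPM of Dnajb1 against 34.0 CPM in vehicle, so neither was lower there. In T-like cells of that range (50 vehicle and 32 takinib cells) Dnajb1 was at 75.1 and 80.0 CPM, so not lower. No Hsph1 UMI was seen in those takinib cells (0 CPM [0, 49.2]). In neutrophil-like cells at 10 to 20%, 237 of vehicle and 167 of takinib, Hspa8 measured 903 and 276 CPM and Hsph1 46.1 CPM [25.2, 77.4] and 8.12 CPM [2.21, 20.8], while the pair was at 92.2 CPM [61.3, 133] and 99.4 CPM [73.6, 131] and so not lower in takinib.

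**Figure D4:**
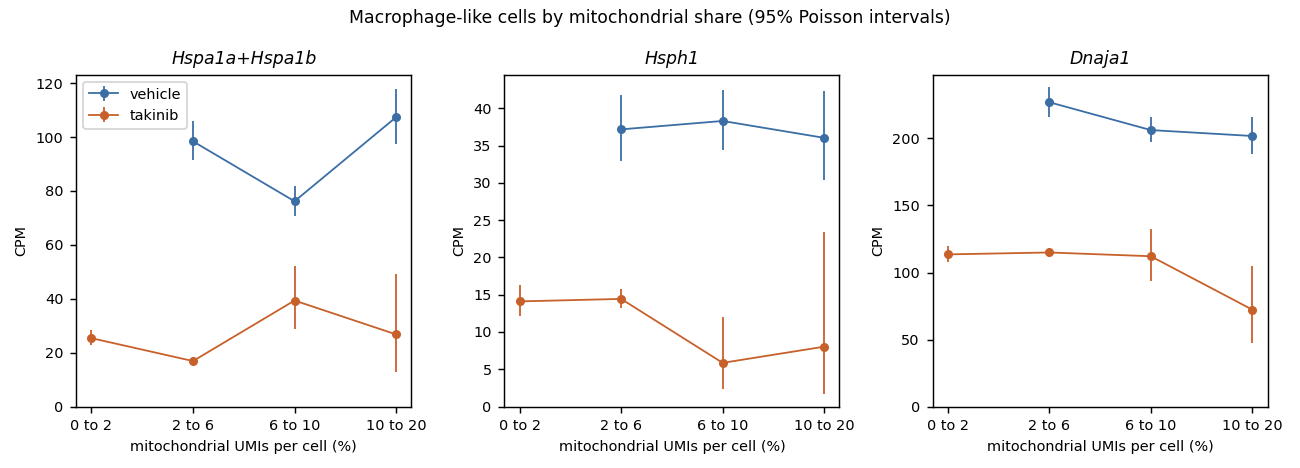
Level in CPM (y axes, from 0) of the summed pair, Hsph1 and Dnaja1 in macrophage-like cells by the mitochondrial share of the cell (x axis), with 95% Poisson intervals, for ranges with enough cells. Vehicle lies above takinib in each shared range, for the pair at 98.4 and 16.9 CPM in the range of 2 to 6%.

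Classes can mix cells of different kinds, so the members were also read in the 13 clusters that had at least 100 cells in each library. The pair, Hspa1a, Hspa1b, Hsph1 and Dnaja1 had ratios below 0 in 13 of 13 clusters, Hspa5 in 12 and Dnajb1 in 6. The share of all genes below 0 in these clusters was not counted. In macrophage-like cells the clusters differ between libraries, since most vehicle cells lay in a cluster led by Alox15 (2297 and 598 cells) and one led by Dcstamp and H2-Ab1 (1567 and 114), and many takinib cells in one led by Gpnmb (471 and 1774) or by Ccl8 (153 and 1005). The largest takinib cluster of the class, led by U90926, Saa3 and F13a1, held 2378 takinib and 12 vehicle cells and 590 of the 939 UMIs of the pair in takinib macrophage-like cells, at 35.4 CPM [32.6, 38.4], so most of the takinib class level came from a cluster with hardly any vehicle cell. The pair measured 90.4 and 10.6 CPM in the Alox15 cluster, 93.5 and 23.2 CPM in the Dcstamp cluster, 29.97 and 9.04 CPM in the Gpnmb cluster and 61.1 and 12.99 CPM in the Ccl8 cluster. The vehicle level of the pair thus ran from 29.97 to 93.5 CPM over these 4 clusters, and each was lower in takinib. Of the 810 vehicle UMIs of the pair in the Alox15 cluster, 213 came from 1 cell. Among neutrophil-like cells 258 of the 273 vehicle cells lay in the cluster led by Retnlg and Cxcr2, with 2940 takinib cells. In it the pair measured 78.2 and 20.4 CPM, Hsph1 48.1 and 2.86 CPM, Hspa8 929 and 276 CPM and Dnajb1 27.0 and 55.0 CPM.

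The furthest ratio of the pair in any of these clusters was in cells led by S100a4, Vcan and Ccr2, genes of monocytes. There Hspa1a and Hspa1b together measured 568 CPM in 133 vehicle cells and 14.6 CPM in 1012 takinib cells, a log2 ratio of -4.56 [-4.83, -4.27]. The pair was seen in 68 of the 133 vehicle cells, so no single cell carried it. The 7 vehicle cells with Xist UMIs only had 511 CPM and the 32 with Y-linked UMIs only had 506 CPM, too few cells to compare the sexes. Hsph1 measured 52.8 and 8.98 CPM there. This clustering used the members among its genes, so cells rich in the pair could have been drawn together. When the cells were clustered without the chaperone and early genes, a cluster led by S100a4, Ms4a4c and Ccr2 with 169 and 824 cells carried the pair at 454 CPM [393, 522] and 12.4 CPM [9.23, 16.4]. In that clustering no other cluster with at least 100 vehicle cells exceeded 201 CPM.

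The share of cells with a UMI of the pair was compared after thinning each cell to 1000 UMIs. In macrophage-like cells 7.57% [6.84, 8.36] of vehicle and 1.51% [1.24, 1.83] of takinib cells held at least 1 UMI of the pair, and before thinning 19.1% and 6.82% did. In epithelial-like cells the thinned shares were 13.2% and 8.66%, in T-like cells 9.13% and 2.06%. Neutrophil-like cells had 8.79% [5.71, 12.8] and 2.91% [2.62, 3.22]. Free RNA can give a UMI to a cell that does not express the gene, and no class here is known to lack the pair, so these shares hold an unknown background.

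Cells very rich in the pair were set apart as well. At least 3 UMIs of the pair among 1000 were held by 42 vehicle cells (0.439% [0.317, 0.594]) and 102 takinib cells (0.405% [0.330, 0.491]). Over all cells these intervals overlap, but the libraries differ in their make-up of classes. The share of rich cells was lower in takinib in each compared class except B-like cells, with 0 of 244 vehicle and 3 of 1383 takinib cells. Only in macrophage-like cells did the intervals of the libraries not overlap. In macrophage-like cells 25 of 4833 vehicle cells (0.517% [0.335, 0.763]) and 8 of 7071 takinib cells (0.113% [0.0489, 0.223]) were rich, and 11 of the former lay among the 133 vehicle cells led by S100a4, Vcan and Ccr2, where 0 of 1012 takinib cells were. Of the rich takinib cells, 79 were neutrophil-like. Among the 12293 takinib neutrophil-like cells, 50% of the 2472 UMIs of the pair lay in 43 cells. Most of these rich cells were in the clusters led by Ccl4, Acod1 and Cxcl2 (40 of 3474 cells, pair at 116 CPM) and by Ccl3, Chil1 and Lcn2 (32 of 4776 cells, 94.6 CPM), and 4 of 2940 were in the cluster led by Retnlg and Cxcr2. The neutrophil-like level of the pair in takinib thus came from few cells, mostly outside the cluster that held the vehicle neutrophils.

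The other members were read in these rich cells, since they had no part in choosing them. In the 79 takinib neutrophil-like cells Hsph1 measured 150 CPM [104, 208] of the UMIs outside the pair, against 3.67 CPM in the other 12214 cells, a 40.8-fold difference. Hsp90aa1 was at 2737 CPM [2529, 2958] against 333 CPM, Hspa8 at 1399 against 271 CPM, Dnaja1 at 458 against 99.0 CPM and Dnajb1 at 192 against 57.4 CPM. Besides the pair that chose them, these cells were thus higher in Hsph1, Hsp90aa1, both J-domain members and the constitutive Hspa8. Not every heat-linked gene was higher in them, with Bag3 at 0 CPM [0, 15.8] against 4.72 CPM and Chordc1 at 17.1 CPM [4.66, 43.8] against 10.7 CPM. Hsp90ab1, also constitutive, was at 376 CPM [302, 464] against 326 CPM, with overlapping intervals. Hspa5 was higher in the rich cells, at 453 CPM [371, 548] against 320 CPM [313, 326]. The summed early genes were at 14854 CPM in the rich cells and 14131 CPM in the others, and the median mitochondrial share was 0.95% in the rich cells. In the 25 rich cells of vehicle macrophage-like cells the differences were smaller, with Hsp90aa1 at 754 CPM [563, 989] against 265 CPM, Hsph1 at 130 CPM [59.7, 248] against 37.2 CPM and Hspa8 at 1493 against 1178 CPM. Of these 25 cells, the 1 with 213 UMIs of the pair gave 26 of the 52 Hsp90aa1 UMIs and 32 of the 103 Hspa8 UMIs. It gave 2 of the 9 Hsph1 UMIs. The Hsp90aa1 and Hspa8 differences thus rest in large part on that cell. These are cells of 1 library each, so the differences are between cells and not between animals.

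**Figure D5:**
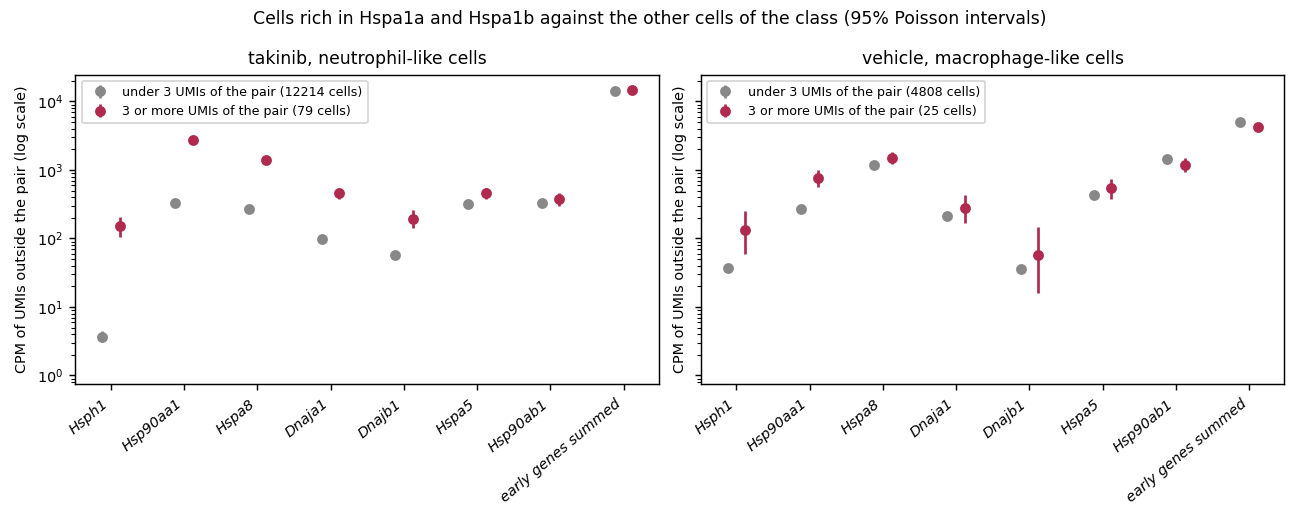
Level (y axis, log scale, CPM of UMIs outside the pair) of 7 members and the summed early genes in cells with 3 or more UMIs of the pair among 1000 (red) and in the other cells of the class (grey), with 95% Poisson intervals. In takinib neutrophil-like cells Hsph1 stands at 150 and 3.67 CPM, while Hsp90ab1 stands at 376 and 326 CPM.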

How the data were processed

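Single-cell RNA was measured in 1 vehicle and 1 takinib library of KPPC tumours, grouped by their labels. The authors deposited unnormalized UMI counts. Per the file headers, vehicle was counted with Cell Ranger 4 and takinib with Cell Ranger 6.1.1, whereas the submitters' processing notes list Cell Ranger 2.1.1, STAR 2.0.4b, featureCounts 1.45 and mm10. These versions differ, and so may the handling of reads that fit both Hspa1a and Hspa1b. The kit, the annotation and the strand setting are not given in the sources used here.

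Filters kept barcodes of 1000 UMIs or more, with 500 genes or more and no more than 20% mitochondrial UMIs. Scrublet marked 3.18% of 9872 vehicle barcodes as doublets (314 barcodes, left out). The same caller marked 0.00373% of the 26790 takinib barcodes and so had not worked, and the 1607 with the highest scores (6%) were removed. Cells of vehicle and takinib were clustered jointly in scanpy 1.11.5 (2000 variable genes, the members allowed among them, 30 components, 15 neighbours, Leiden resolution 1), and clusters were named from markers of 17 classes by a rule set after the data were seen. Counts were summed per class and library. CPM, the pseudocount of 10 CPM, the minimum of 50 counts and the 2-fold limit were applied to all genes, and the step was tested on simulated data. There 100% of 200 genes changed 3-fold were recovered in the macrophage-like comparison of 11946 genes. The changed genes were drawn only from those at 50 CPM or more, with Poisson noise alone. The check thus does not cover weaker genes, such as Hspa1b, Hsph1 and Dnajb1 in macrophage-like cells. Intervals are exact Poisson or Clopper-Pearson, and for ratios come from 1000 Poisson resamples. UMIs remove PCR copies, and intervals cover counting error only; libraries held 42000538 and 119726977 UMIs in kept cells.

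The members, the 5 lists and the rules were chosen with earlier results of these data known. Genes named are the 10 members, genes of the 5 lists, and the 5 other genes most like the summed pair over class profiles. Hspa1a overlaps Gm20481 and Dnaja1 overlaps Smu1 on the other strand, so their reads may be shared. The 13 alternatives, 3 of them chosen after seeing the data, are a depth of 2000 UMIs and 1000 genes, at most 10% mitochondrial UMIs, doublets kept, clustering without chaperone and early genes, thinning, a neutrophil profile subtracted, a median ratio set to 0, a pseudocount of 1 CPM, no minimum of counts, female vehicle cells only, and the added ones (2 to 6% mitochondrial UMIs, male vehicle cells only, without the cell richest in the pair).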

Additional observations from a re-analysis of the deposited data

How the results depend on the processing

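No member that was lower past the fold had a ratio above 0 past the fold under an alternative. The count of members higher past the fold was 0 in each class and went to 1 in neutrophil-like cells with the median ratio set to 0 (Dnajb1, 1.12) and with a pseudocount of 1 CPM (Hspb1, whose vehicle count was 0). The count of members lower past the fold moved with the setting in the 6 classes and in the Dcn cluster. In macrophage-like cells Hsph1 passed the fold against male vehicle cells (-1.14), which added 1 member. In neutrophil-like cells Hsp90ab1 came inside the fold with the median ratio set to 0 (-0.79). In B-like cells it went from 2 to 0 at 2000 UMIs and 1000 genes and with the neutrophil profile subtracted, to 1 when clustered without chaperone and early genes and after thinning, and to 4 with no minimum of counts. In T-like cells it went from 3 to 0 at 2000 UMIs and 1000 genes, where 8 members had enough counts. In endothelial-like cells it went from 2 to 1 after thinning, with 2 to 6% mitochondrial UMIs and against male vehicle cells, and to 0 against female ones. In epithelial-like cells it went from 2 to 1 after thinning, with the median ratio set to 0 and with the neutrophil profile subtracted. In the Dcn cluster it went from 3 to 0 after thinning, where 6 members had enough counts. Hsph1 in T-like cells at that depth (-1.82), the pair in B-like cells with the profile subtracted (-2.66) and Hsph1 in the thinned Dcn cluster (-2.42) kept ratios past the fold on too few counts, while Hspb1 in epithelial-like cells came inside the fold with the median ratio set to 0 (-0.96) and the profile subtracted (-0.95). The causes were not tested. Neutrophil-like cells gave no value with the clustering that left out the stress genes, with doublets kept or in female cells.

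Ratios of the pair stayed below 0 in each class and setting run, from -0.73 to -0.26 in epithelial-like and from -2.32 to -1.31 in macrophage-like cells, and so did those of Hsph1, from -2.66 to -1.82 in T-like and from -1.35 to -0.43 in macrophage-like cells. The -2.32 of the pair is against female vehicle cells, at 139 CPM. Without 1 cell with 213 UMIs of the pair their level was 54.9 CPM, and no ratio was run on that value. No paired analysis was possible because each group has 1 library. Depth limits the neutrophil-like, T-like and B-like values of vehicle, which rest on 379261, 527509 and 575142 UMIs, and the endothelial-like values of takinib on 685234.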

Other observations

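Classes with too few cells in 1 library for a ratio also carried the members. Plasma-like cells of takinib (202 cells), which secrete antibody, had 953 CPM of Hspa5, above the intervals of the other takinib classes with enough cells to order. The pair there was at 10.6 CPM, the lowest of those takinib classes, and epithelial-like cells at 99.2 CPM were the highest. Erythroid-like cells of takinib (553 cells) had 42.5 CPM of Hsph1 and 987 CPM of Hsp90aa1, both above the intervals of the other takinib classes in that order. Perivascular-like cells of vehicle (584 cells) had 199 CPM of the pair and 544 CPM of Hspb1.

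Over 12 profiles (6 classes in 2 libraries), the genes whose level was most like that of the pair were Sc5d (Pearson r 0.90), Ppp1r35 (0.80), Ctrb1 (0.78), Man1b1 (0.77) and Ing4 (0.77), among 6503 genes. Of the other members Hsp90aa1 had r 0.79, Dnaja1 0.68 and Hsph1 0.64, while Dnajb1 had 0.20. Ctrb1 is a digestive enzyme of acinar cells whose RNA is common in free RNA of pancreas, and it measured 53.8 to 214 CPM in vehicle classes and 1.46 to 49.4 CPM in takinib classes. The profiles share 2 libraries, so the correlation describes them and carries no p.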
